A study of Drosophila melanogaster with 2 samples.

Results

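The genes described here carry the names of cytoplasmic ribosomal proteins in Drosophila melanogaster. They were taken as every protein-coding gene whose symbol begins with RpL, for the large subunit, or RpS, for the small subunit. The rule gave 92 of the 13968 protein-coding genes on the 7 chromosomes used, 54 of them RpL and 38 RpS. The rule uses symbols and no binding value. It also takes in 5 genes whose symbols end in -like, of which RpLP0-like, RpL24-like and RpL7-like are counterparts of yeast ribosome assembly factors and not known as parts of the finished ribosome. All 92 are called ribosomal protein genes here for short.

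The study mapped chromatin sites of Nemo (nmo), a protein kinase of the Nemo-like kinase family, by chromatin immunoprecipitation and sequencing (ChIP-seq). Embryos came from a transgenic line that stably carries nmo with GFP at its C terminus, and an anti-GFP antibody was used for the precipitation. All samples formed 1 group of 2 biological replicates, numbered 2 and 3, each from whole embryos of mixed sex aged 0 to 24 h, with chromatin sonicated to 200 to 800 bp. No untagged, mock or input sample was analysed here, so no level is set against a control and no difference was tested.

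Because whole embryos were used, occupancy in few cells and weak occupancy in many cells cannot be told apart. Read depth is unknown, since the lists used hold peaks and not reads. A peak's strength is the authors' own signal value, which has no stated unit and is read only within 1 list. The list filtered by IDR (irreproducible discovery rate, a measure of agreement between replicates) held 9299 peaks with signal values from 166 to 7478, and it was made up of the strongest peaks of the pooled list. The pooled list and each replicate's list held 30000 peaks.

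Ribosomal proteins assemble with ribosomal RNA in the nucleolus into the large and small subunits, and they are needed in matched amounts. In Drosophila, loss of a single copy of many of these genes gives the Minute phenotype of slow growth and thin bristles. Their transcription starts at a pyrimidine-rich initiator, called TCT, which differs from the initiator of most genes.

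Nearly every ribosomal protein gene had a Nemo summit at its promoter. An IDR summit lay within 1000 bp of an annotated transcription start site (TSS) of 85 of the 92 genes (92.4%), against 43.8% of all protein-coding genes. The large subunit contributed 50 of its 54 genes and the small subunit 35 of its 38. Without the 5 genes ending in -like, 82 of the remaining 87 had one. In the pooled list 89 genes (96.7%) had a summit, against 61.8% of all protein-coding genes. Replicate 2 alone gave 89 genes, against 62.2% of all genes, and replicate 3 alone gave 89, against 61.1%. All 85 IDR summits carried the highest -log10 q of the list, 4.27, as did 9232 of the 9299 peaks, so this column does not order them. Expression was not measured in the series, and its part in this difference was not tested.

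**Figure D1:**
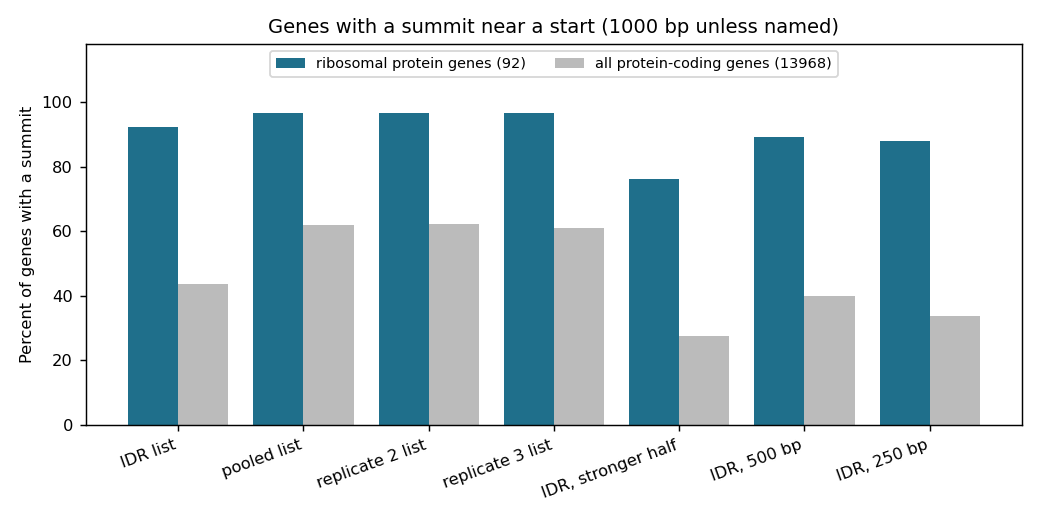
Bars give the percent of genes (vertical axis) with a summit near a start in each peak list or under each stricter setting, for the 92 ribosomal protein genes and for all 13968 protein-coding genes. In the IDR list the bars stand at 92.4% and 43.8%, and the ribosomal protein bar is the taller in all settings drawn.

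The promoter stretches that follow show the strongest member, a widely used reference gene, a promoter shared with a transcription factor gene and a promoter with both a DRE core and a Motif 1 core. Each runs 5' to 3' on the strand of the ribosomal protein gene and ends at the base before its start, and exons of other genes were left out. Capitals mark ATCGAT (the core of the DRE, the site of the factor DREF), GGTCACACT (the core of Motif 1, the site of M1BP) or CACGTG (an E-box, the site of Myc), on either strand. The sequences come from the RefSeq copy of the release 6 assembly, whose coordinates are those of dm6. RpS27 is shown from chr3R:25247515-25247657 on the minus strand, RpL32 from chr3R:30046162-30046411 on the minus strand, RpL13 from chr2L:9967230-9967312 on the plus strand and RpL27 from chr3R:25685052-25685235 on the minus strand.
RpS27: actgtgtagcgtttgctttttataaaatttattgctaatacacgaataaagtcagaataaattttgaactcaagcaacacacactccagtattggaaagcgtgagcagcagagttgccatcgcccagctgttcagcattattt
RpL32: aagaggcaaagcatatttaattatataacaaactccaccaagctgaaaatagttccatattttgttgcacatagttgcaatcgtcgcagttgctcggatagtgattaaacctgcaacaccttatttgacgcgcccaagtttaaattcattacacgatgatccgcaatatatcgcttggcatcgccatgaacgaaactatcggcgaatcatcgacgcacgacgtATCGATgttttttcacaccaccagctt
RpL13: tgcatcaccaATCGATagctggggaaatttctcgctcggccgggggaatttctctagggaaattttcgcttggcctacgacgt
RpL27: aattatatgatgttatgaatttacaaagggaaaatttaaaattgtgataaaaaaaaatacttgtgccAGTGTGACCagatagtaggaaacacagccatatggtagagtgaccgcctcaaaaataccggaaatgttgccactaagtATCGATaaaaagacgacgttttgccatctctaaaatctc
The stretch at the strongest summit of the family, that of RpS27, held none of the 3 marked motifs. It is the whole interval to the start of Nup37 on the opposite strand. The summit there was 67 bp from the RpS27 start and 77 bp from the Nup37 start. The RpL13 stretch is the whole interval to the start of Dref, which encodes the DREF factor itself. It holds the DRE core letters ATCGAT but not the longer TATCGATA, and binding of DREF was not measured here.

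The ribosomal protein promoters were of medium to high strength within the IDR list. The median signal value of the strongest IDR summit per gene was 556 (quartiles 378 and 805), against 407 (271 and 669) over all protein-coding genes with such a summit. None of the 92 genes held a summit among the 300 strongest IDR peaks, where 309 (2.21%) of all protein-coding genes did. This depends on the limit, since RpS27 stood at rank 302, and at rank 263 in replicate 3 and 422 in replicate 2. Ranks 301 to 1000 held 17 members (18.5%), against 4.51% of all protein-coding genes, and ranks 1001 to 3000 held 38 (41.3%), against 12.2%. These shares count genes without a summit too, 7.61% of members and 56.2% of protein-coding genes, so they reflect presence as well as strength. Among genes with a summit, the counts were 17 of 85 against 630 of 6122, and 38 of 85 against 1703 of 6122. The large-subunit genes had a median of 621 and the small-subunit genes one of 455. Replicate 2 gave medians of 235 and 163 for the same 2 classes, and replicate 3 gave 399 and 290, each on its own scale.

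RpS27 on chromosome 3R (FBgn0039300, 25245955 to 25247514, minus strand) had the strongest summit, with an IDR signal value of 1648 at rank 302. Its signal value was 487 in replicate 2 and 1164 in replicate 3. RpL32 (FBgn0002626, 3R, 30045229 to 30046161, minus strand), also known as rp49, had 1455 at rank 412, with 458 in replicate 2 and 990 in replicate 3. RpL34b and RpL7 followed with IDR signal values of 1365 and 1351. RpL34b had 450 in replicate 2 and 918 in replicate 3, and RpL7 had 461 and 882. Next came RpS20, RpL14, RpS25, RpL26 and RpL34a, with IDR signal values from 1112 to 1057. RpL34a, the lowest of these, stood at rank 757.

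**Figure D2:**
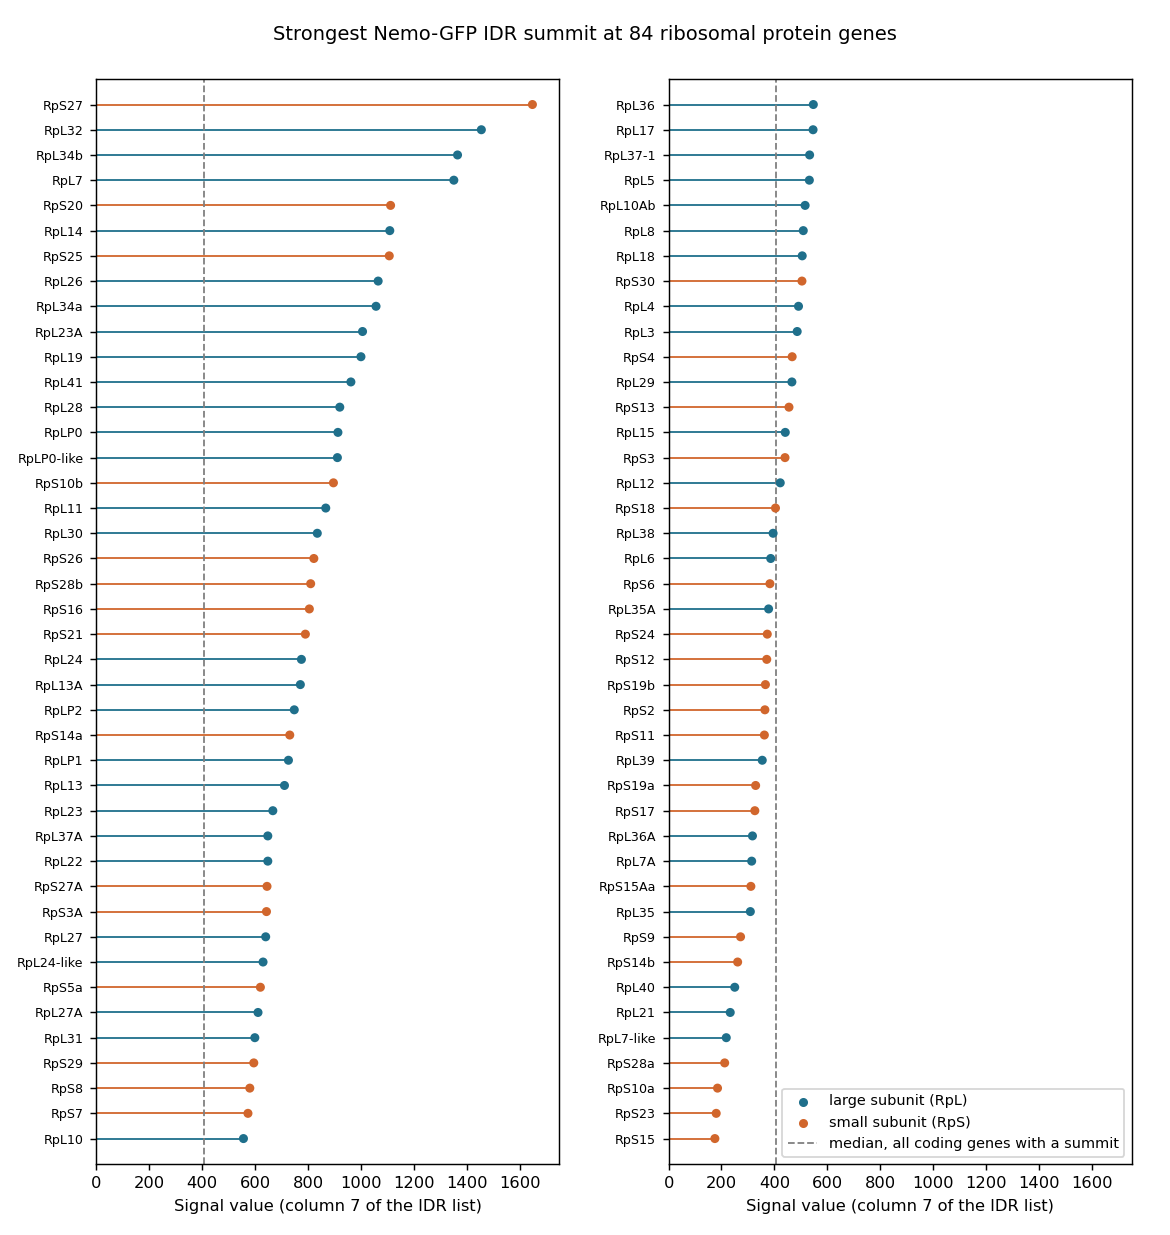
Points give the IDR signal value (horizontal axis, no unit) of the strongest summit at 84 of the 85 genes that had one, ordered by value over both panels and coloured by subunit. The dashed line is the median of all protein-coding genes with a summit, 407, and the values run from 1648 at RpS27 to 175 at RpS15.

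Among proteins with a shared task, the 3 stalk genes had like values. The stalk of the large subunit recruits translation factors. RpLP0 had an IDR signal value of 913, RpLP2 had 748 and RpLP1 had 726. RpL5 and RpL11, whose proteins carry the 5S ribosomal RNA into the large subunit, had IDR signal values of 532 and 867. RpS27A and RpL40 encode ribosomal proteins made as fusions to ubiquitin. RpS27A had 645 at -96 bp, and this summit was also 96 bp from a start of Ip259. RpL40 had 250 at -588 bp, which is 14 bp from the start of its neighbour CG3702. The ribosomal proteins that the symbol rule misses, sta and Rack1, had IDR summits of 459 at 41 bp and 369 at 32 bp.

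The summits lay close upstream of the starts. The median position of the strongest IDR summit was -81 bp from the nearest start of the gene (quartiles -124 and -37), where negative is upstream. Over all protein-coding genes with a summit it was -129 bp (-241 and -45). Summits between 200 bp upstream and the start made up 67 of 85 (78.8%), against 55.4% over all such genes, and 7 (8.24%) lay over 250 bp away, against 28.9%. The IDR medians of the large and small subunits were -80 and -85 bp, but 86% of the large-subunit summits and 68.6% of the small-subunit summits lay between 200 bp upstream and the start. In replicate 2 the median was -58 bp and in replicate 3 it was -87 bp, beside -112 and -128 bp over all protein-coding genes.

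**Figure D3:**
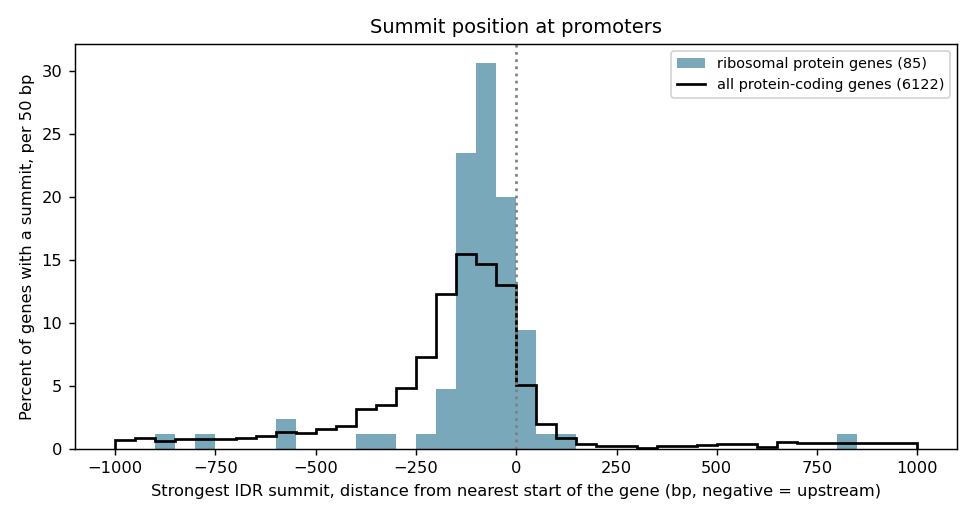
The histogram gives the percent of genes (vertical axis) by the distance of the strongest IDR summit from the nearest start (horizontal axis, bp), for 85 ribosomal protein genes (filled) and 6122 protein-coding genes (line). The filled bars peak closer to the start, with a median of -81 bp against -129 bp.

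The limit of 1000 bp decided few members. The farthest strongest summits inside it were at -892 bp (RpS19b) and 814 bp (RpS14b), and the nearest IDR summits outside it were at -1737 bp (RpS15Ab) and -2701 bp (RpS5b). Of the 7 genes whose strongest summit was over 250 bp away, RpS28b, RpL10Ab and RpS14b had a further IDR summit within 250 bp, and RpS19b, RpL40, RpS10a and RpS15 had none. RpS15 had the weakest value of all, 175 at -599 bp, and the pooled list held a weaker summit at -17 bp. More than 1 IDR summit was found at 25 of the 85 genes (29.4%), against 21% of all protein-coding genes with a summit. Of the 26 further summits, 21 lay upstream and 15 of these were over 250 bp away. At RpS27 the further summit was at -274 bp, with a signal value of 715.

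Many of these summits lay between a ribosomal protein gene and a neighbour read the other way. A protein-coding gene started on the opposite strand within 1000 bp upstream of 55 members (59.8%), against 36.2% of all protein-coding genes, and within 250 bp of 17 (18.5%), against 14.2%. No 2 ribosomal protein genes shared such a region. Of the 55, 53 (96.4%) had an IDR summit, and of the other 37, 32 (86.5%) did. Over all protein-coding genes these shares were 73% and 27.3%. The median signal value was 580 with a shared region and 539 without, with upper quartiles of 913 and 648. The highest value without a shared region was 1006, so every member above it, RpS27 and RpL32 among them, lay in a shared region. Over all protein-coding genes with a summit the medians were 450 and 357, the upper quartiles 727 and 575 and the highest values 6603 and 7478.

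A summit in a shared region belongs to both genes by distance alone. It was nearer to the ribosomal protein gene in 41 of 53 regions and nearer to the neighbour in 12. The starts of RpL13 and Dref were 84 bp apart, and their common summit was 120 bp from the RpL13 start and 36 bp from that of Dref. At RpLP0-like the summit was 8 bp from the start of 14-3-3zeta and 79 bp from its own.

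Some ribosomal protein genes have a duplicate elsewhere in the genome. There were 13 pairs, by symbols that end in a and b, 1 and 2 or -like (named copies here by symbol alone), and they covered 27 members with RpS28-like. An IDR summit was found at 21 of the 27, and 19 had one within 250 bp of a start, which was the strongest in 16. Of the 65 members with 1 copy, 64 had an IDR summit and 62 had one within 250 bp. RpL9 was the single-copy exception. Over all protein-coding genes, 43.8% had an IDR summit within 1000 bp and 33.8% had one within 250 bp. The count depends on which symbols were read as copies.

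RpL7 had an IDR signal value of 1351 and RpL7-like had 218. RpS10b had 896 at -73 bp, with 302 in replicate 2 and 583 in replicate 3. RpS10a had 185 at -400 bp, and its strongest summits in the replicates lay elsewhere, with 133 at -455 bp in replicate 2 and 90.4 at -863 bp in replicate 3. RpS10b was the higher copy in both replicates. The other large gap in a called pair was that of RpS28b, with 810, and RpS28a, with 212. The RpS28b value came from a summit at -758 bp, nearer to the start of its neighbour l(1)G0320 than to its own. The RpS28b summit at -34 bp had 424. The RpS28a summit was 130 bp from its own start and 64 bp from that of Axn. RpS14a and RpS14b, neighbours on the X chromosome with near-identical coding sequences, had 731 at -151 bp and 261 at 814 bp. The 261 summit was 90 bp from the start of Ubr3, and the RpS14b summit at -53 bp had 248. How reads that match both copies were placed is not given in the sources used here. The RpS14a and RpS14b summits lay outside both genes, so how far their values are affected is unknown. RpL34a and RpL34b were both strong, at 1057 and 1365, and RpLP0 and RpLP0-like, paired by symbol only, had 913 and 911.

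In 5 pairs 1 copy had no IDR summit while its partner did. RpL10Ab had 516, RpL22 had 648, RpL37-1 had 533, RpS5a had 620 and RpS15Aa had 311. The RpL10Ab value came from a summit at -311 bp, which was 265 bp from the start of CG11597. Its summit at -80 bp had 285. RpL22-like, known for its expression in the male germline, had no summit in any list within 1000 bp. RpL10Aa and RpL37-2 had none either. RpS5b, known for its role in the female germline, had no IDR summit but a weak summit at 25 bp in the pooled list, with 113 at rank 12411. In RpS15Ab the pooled summit had a signal value of 162, just under the lowest IDR value of 166.

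**Figure D4:**
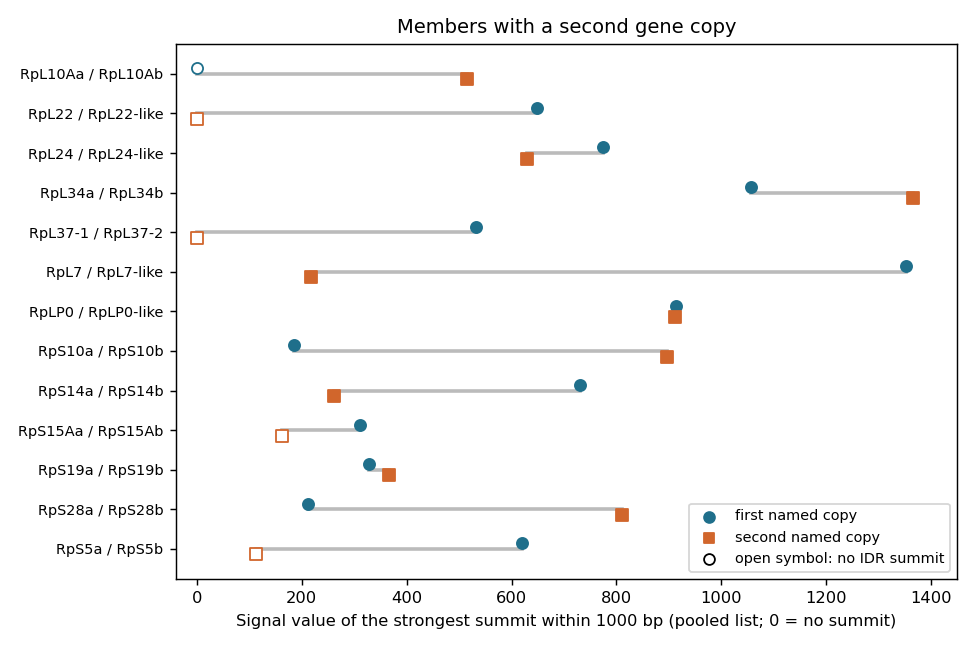
Points give the signal value (horizontal axis, no unit) of the strongest pooled summit within 1000 bp for both copies of each of the 13 pairs, and open symbols have no IDR summit. RpL7 and RpL7-like lie farthest apart of the pairs in which both copies have an IDR summit, at 1351 and 218.

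Promoters of copies can be set side by side. RpS10b (chrX:19597781-19598030, plus strand) and RpL10Ab (chr3L:11822601-11822850, plus strand) are copies with an IDR summit, and RpS10a (chr3R:27652510-27652759, plus strand) and RpL10Aa (chr3R:15037116-15037365, plus strand) are their weaker partners. Each stretch is the 250 bases before the start, from the RefSeq copy of release 6, and capitals again mark ATCGAT, GGTCACACT or CACGTG on either strand.
RpS10b: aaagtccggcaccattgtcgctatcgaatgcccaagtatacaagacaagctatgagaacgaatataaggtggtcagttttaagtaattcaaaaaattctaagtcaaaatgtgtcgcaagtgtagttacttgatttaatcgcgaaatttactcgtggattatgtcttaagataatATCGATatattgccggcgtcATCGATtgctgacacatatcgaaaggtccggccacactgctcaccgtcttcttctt
RpS10a: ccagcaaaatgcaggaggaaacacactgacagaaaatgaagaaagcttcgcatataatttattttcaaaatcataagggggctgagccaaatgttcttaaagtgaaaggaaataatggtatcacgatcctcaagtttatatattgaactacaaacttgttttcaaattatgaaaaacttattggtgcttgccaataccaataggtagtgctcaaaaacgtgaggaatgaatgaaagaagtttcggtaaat
RpL10Ab: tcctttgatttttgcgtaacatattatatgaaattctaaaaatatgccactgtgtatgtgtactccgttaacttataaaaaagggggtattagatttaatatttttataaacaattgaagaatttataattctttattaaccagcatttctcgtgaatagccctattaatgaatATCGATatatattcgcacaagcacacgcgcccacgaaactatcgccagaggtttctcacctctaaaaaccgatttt
RpL10Aa: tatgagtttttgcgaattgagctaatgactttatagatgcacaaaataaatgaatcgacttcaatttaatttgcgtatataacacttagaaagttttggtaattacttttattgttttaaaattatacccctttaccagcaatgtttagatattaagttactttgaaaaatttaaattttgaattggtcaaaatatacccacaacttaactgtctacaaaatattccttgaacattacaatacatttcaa
RpS10b held 2 DRE cores and RpL10Ab held 1, while the stretches of RpS10a and RpL10Aa held none. These pairs were chosen after values were seen, and other pairs differ. Of the 13 pairs, 8 had a DRE core in the promoter of only 1 copy, and that copy had the higher pooled signal value in 4 and the lower in 4. RpL7-like and RpL34a, each the lower copy, held a core while RpL7 and RpL34b held none. The DRE core of RpS10b nearest to the summit was 0 bp from it, and that of RpL10Ab was 238 bp from its strongest summit. This RpL10Ab core lay at -76 bp, close to the weaker RpL10Ab summit at -80 bp.

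The remaining members without an IDR summit were RpL9 and RpS28-like. RpL9 (FBgn0015756, 2L, 11002758 to 11004189, minus strand) was the only single-copy gene among the 7. Its strongest replicate 2 summit was at 36 bp with a signal value of 141 at rank 4102, and its strongest replicate 3 summit was at -268 bp with 51.6 at rank 14685. The replicates thus differed at RpL9 in both place and rank. RpS28-like had a pooled summit of 146 at 498 bp.

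The replicates ranked the members in a similar order. Of the 89 genes with a summit in both replicate lists, 72 (80.9%) had ranks within 2-fold of each other, against 91.8% of 7784 protein-coding genes. The distance between the 2 replicates' strongest summits had a median of 34 bp, against 31 bp. Spearman's rho between the ranks was 0.82 for the members and 0.91 for all genes, as a description across genes, which are not independent replicates.

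The genes that stood lowest in replicate 2 relative to replicate 3 were RpL5, RpS3A and RpL15. RpL5 ranked 7240 in replicate 2 and 1640 in replicate 3, with signal values of 90.8 and 440. RpS3A ranked 4693 and 1304, and RpL15 ranked 7003 and 2216. All 3 lie within 2 Mb of the centromeric end of an arm or on chromosome 4, as does RpL21. These 4 genes had a median log2 ratio of ranks (replicate 2 over replicate 3) of 1.75, and all 4 ranks differed by 2-fold or more. Of the 85 other members, 3 (3.53%) had a rank number at least 2 times higher in replicate 2. Over all protein-coding genes the same place held 55 with summits in both replicates, of which 28 (50.9%) were at least 2 times higher, against 3.18% elsewhere. With a limit of 6 Mb, 6 of 10 members (60%) were at least 2 times higher in replicate 2, against 72 of 514 protein-coding genes (14%), whose median log2 ratio was 0.11. Both limits were set after the values were seen, and the cause was not tested. In the other direction, RpL9, RpLP0-like and RpL11 stood lowest in replicate 3, with log2 ratios of -1.84, -1.58 and -1.46.

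**Figure D5:**
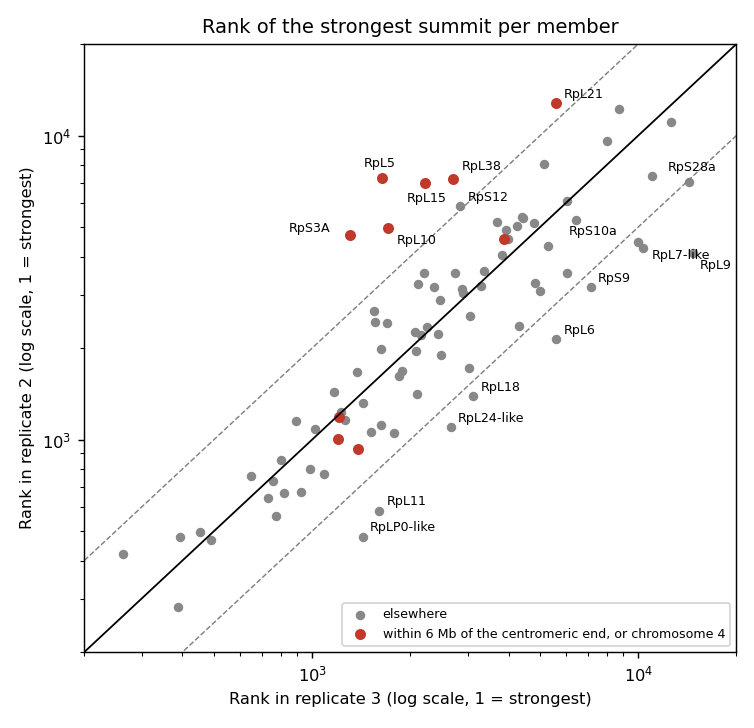
Each point is a member's rank in replicate 3 (horizontal axis) and replicate 2 (vertical axis), both on log scales with 1 the strongest, and dashed lines mark 2-fold. Red points lie within 6 Mb of the centromeric end of an arm or on chromosome 4, and 6 of these 10 have a rank number at least 2 times higher in replicate 2, against 14% of all protein-coding genes there.

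The start sites carried the pyrimidine-rich letters known for this gene class. CTTT, the core of the TCT initiator, began within 5 bp of an annotated start on the sense strand in 58 members (63%), against 8.06% of all protein-coding genes. Members had a mean of 1.68 annotated starts, against 1.41, which gives them more chances to match. With the most upstream start alone the count was 31 (33.7%), against 5.63%. C was the first transcribed base at any annotated start in 40 members (43.5%), against 30.5%, a smaller difference. The median signal value was 580 in the 55 genes with CTTT and an IDR summit and 540 in the 30 without it. The windows that follow hold 15 bases before and 15 from the start on, with CTTT in capitals, from RefSeq. They are RpL14 at chr3L:8600991-8601020, RpL8 at chr3L:2587441-2587470 and RpLP0 at chr3L:22076077-22076106, all on the plus strand, and RpS9 at chr3L:9511517-9511546 on the minus strand. RpS5a at chrX:17148250-17148279 and RpS5b at chr3R:14901549-14901578 are both on the minus strand, and RpL10Aa is at chr3R:15037351-15037380 on the plus strand.
RpL14: ctgtcaaaaaagttCTTTccttctctttct
RpL8: aggatgtcttcctCTTTtcttttcttttcg
RpLP0: tgccgccgccaacttcactCTTTccgttct
RpS9: tcacactaccttcacccctCTTTctttttc
RpS5a: cacactgccgtaacatgttCTTTttcaggc
RpS5b: agctccttttaccgtttCTTTttcatcctc
RpL10Aa: tacaatacatttcaaattttgtgcttgtag
RpS5b, which had no IDR summit, carried CTTT at its start like its partner RpS5a, and RpL10Aa did not.

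In the promoter, 250 bp before to 50 bp after a start, the DRE letters TATCGATA were found in 28 members (30.4%), against 10.2% of all protein-coding genes. The shorter ATCGAT, which lies within TATCGATA, was in 39 (42.4%), against 26.3%. CACGTG was in 15 (16.3%), against 5.29%, and GGTCACACT in 10 (10.9%), against 6.77%. GAGAG, the letters of the GAGA factor, were in 19 (20.7%), against 36.2%. TATAAA was in 47 (51.1%), against 51.2%. All but CTTT were searched on both strands, and a match is only a match of letters. Any start was used, so the larger number of starts gives members more chances here too. Within 100 bp of the strongest IDR summit, TATCGATA was in 23 of 85 members (27.1%), against 11.6% of protein-coding genes with a summit. There CACGTG was in 4 (4.71%), against 2.12%, and TATAAA in 23 (27.1%), against 38.3%.

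In 36 genes with a DRE core and an IDR summit, the gap between the 2 had a median of 63 bp (quartiles 25 and 95), against 94 bp (36 and 221) in 2356 protein-coding genes. The gap was 50 bp or less in 17 (47.2%), against 32.2%. The cores lay at a median of -61 bp in the members and -54 bp over all these genes. Member summits lay nearer to the start, so the gap is not independent of the summit position given above. At RpL27 it was 2 bp. The median signal value was 584 in the 36 genes with a core and 546 in the 49 without. In the 201 bp centred on the strongest summits, the median GC content was 38.3% in the members and 34.3% over all protein-coding genes.

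Mitochondrial ribosomal protein genes, whose symbols begin with mRpL or mRpS, build the ribosome of another compartment. Of 73 such genes, 54 (74%) had an IDR summit, with a median signal value of 455 and a median position of -130 bp. Among them 5 stood in the 300 strongest peaks, with a maximum of 6107, against none of the cytoplasmic genes, whose best rank was 302. CTTT was at the start of 4 (5.48%). A protein-coding neighbour started on the opposite strand within 1000 bp upstream of 58 (79.5%), a larger share than the 59.8% of the cytoplasmic genes. The comparison was chosen after earlier results were known and was not tested.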

How the data were processed

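Chromatin immunoprecipitation with an anti-GFP antibody was profiled in 2 replicates of 1 group. The authors deposited peak lists on dm6 for each replicate, for the pooled replicates and after IDR, whose positions, signal values and -log10 q values were used as deposited. Per the file headers, the peak lists came from the alignments together with 1 other file, which was used for the control-normalised signal as well. The peak caller, aligner and IDR threshold are not given in the sources used here, and the unit of the signal value is not stated. No count of reads was used, so depth is unknown. A summit was column 2 plus column 10, and a gene was credited with every summit within 1000 bp of any start of its transcripts in Ensembl release 115 (BDGP 6.54), on 7 chromosomes. The strongest summit per gene was used. The assignment was checked on planted summits. Computation used Python 3.11.15, numpy 2.4.6, scipy 1.17.1 and matplotlib 3.10.9.

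With 1 group nothing was tested, and the main counts stand beside the same over all protein-coding genes. The members and lists were chosen with earlier results of these data known. Genes were named by a rule (the 10 strongest, of which 1 is not reported here, members without a summit, copies, stalk, ubiquitin fusion and 5S genes, and the 3 largest rank differences each way), and RpS15, RpL13, RpS27's further summit, the neighbours, the sequences shown, the centromeric and the mitochondrial comparisons were chosen after values were seen. The replicates are separate samples, but the labels do not name separate cultures. No RefSeq promoter or protein table was used, so the gene start in RefSeq served for the start-site alternative.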

Additional observations from a re-analysis of the deposited data

How the results depend on the processing

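The count of genes with an IDR summit stayed within 1.5 times its value under all alternatives tried, from 70 to 89, with 82 without the genes ending in -like. The count of 70 came with the stronger 4649 peaks of the IDR list, against 27.5% of all protein-coding genes. The pooled list gave 89, against 61.8%. Members without an IDR summit numbered 7, and became 3 in the pooled list, 22 with the stronger 4649 peaks of the IDR list and 11 with summits within 250 bp. The median signal value was 635 with those stronger peaks, and 196 to 374 when 1 replicate was left out, each being the other replicate's own scale. The count of shared regions was 36 (39.1%) with a limit of 500 bp, against 27.3% of all protein-coding genes. The start-site count was 31 with the RefSeq gene start and also 31 with the most upstream start alone, an alternative chosen after seeing the data. The median position ranged from -90 to -64 bp when 1 replicate was left out. Without depth, no interval or floor can be given for a missing summit. No paired analysis was possible because there is 1 group only.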

Other observations

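Ribosome biogenesis genes, which build the ribosome and do not form part of it, were read from a list of 32 genes in the annotation. An IDR summit was found at 26 (81.2%), against 43.8% of all protein-coding genes, and 30 had a pooled summit. Their median signal value was 475. eIF6, which keeps the subunits apart until the large one is mature, had the highest value, 2545 at rank 107. The list also held Rrp1, with 1616, which is a DNA repair enzyme in Drosophila despite its name. Among factors known at ribosomal protein promoters or from ribosomal protein loss, M1BP had 1464, Irbp18 had 1449, Dref had 711 through the summit it shares with RpL13, and Trf2 had 262. Myc and Xrp1 had no IDR summit, and all 6 had a pooled summit.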
